A study of Mus musculus with 2 samples.

Results

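The S100 proteins and the annexins are 2 families of calcium-binding proteins, and 8 of their genes are described here in mouse myeloid-derived suppressor cell cultures: S100a8, S100a9, S100a4, S100a6, S100a10, S100a11, Anxa1 and Anxa2. They were chosen by symbol and are 8 of 32285 genes in the deposited count matrices, and all 8 were measured in both libraries. Myeloid-derived suppressor cells are immature myeloid cells that restrain T cells. They were made in culture from mouse cells with recombinant IL-6 and GM-CSF, each at 40 ng per mL, and sampled on day 4. Live CD11b-positive cells were sorted, tagged and captured together on a 10x Genomics instrument. The Selinexor group is 1 library from a culture that received 50 nM selinexor, an inhibitor of the nuclear export receptor exportin 1, and the DMSO group is 1 library from a culture that received the vehicle, and both had the same cytokines. The labels name no strain, age, sex or number of mice, and a culture grown in a dish stands in for cells that arise in a tumour-bearing animal.

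S100 proteins are small proteins with EF-hand loops. In most of them, though not in all, these loops bind calcium, after which the protein opens a surface that grips a partner protein. S100a8 and S100a9 pair to form calprotectin, which neutrophils hold in their cytosol in very large amounts, release at sites of inflammation and use to starve microbes of zinc and manganese, and which also signals through Tlr4 and Ager. S100a4 binds non-muscle myosin and is known for cell migration, S100a6 (calcyclin) binds Cacybp and annexins, S100a10 holds Anxa2 in a complex that captures plasminogen at the cell surface, and S100a11 binds Anxa1. Annexins bind negatively charged membrane lipids when calcium rises. Anxa1 acts on the formyl peptide receptor Fpr2 to limit inflammation, and Anxa2 serves membrane repair, vesicle traffic and plasminogen capture.

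The 6 S100 genes lie on chromosome 3 and the annexins on chromosomes 19 (Anxa1, minus strand) and 9 (Anxa2, plus strand), by GENCODE M21 on mm10. S100a4, S100a6, S100a8 and S100a9 start at 90603771, 90612882, 90668978 and 90692632, and S100a11 and S100a10 start 2824.77 kb beyond the end of S100a9, at 93520488 and 93555080. S100a8 (plus strand, to 90670035) and S100a9 (minus strand, to 90695721) point towards each other across a gap of 22.6 kb. Anxa1 and Anxa2 overlap genes on the other strand, 1500015L24Rik and Gm16144. On their own strand, S100a4 overlaps Gm42674 and Anxa2 overlaps Mir3109. Whether the counting used strand is not given in the sources used here, so reads shared with these genes could not be told apart.

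The sequences before the starts of S100a8, S100a9 and S100a4 are shown because S100a8 and S100a9 moved together and S100a4 moved against them across the cell states. They are RefSeq promoter windows of GRCm38.p6, 5′ to 3′ on the gene's strand, cut to the bases before the GENCODE gene, and capitals mark the letters TATAAA or TTGCNNAA, the TATA box and a C/EBP motif, searched on both strands.
S100a8, chr3:90668821-90668977, plus strand: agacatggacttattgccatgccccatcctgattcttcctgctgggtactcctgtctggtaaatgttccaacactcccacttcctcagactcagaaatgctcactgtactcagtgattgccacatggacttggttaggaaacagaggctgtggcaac
S100a8 TATA site, chr3:90669031-90669056, plus strand: agctttcctcTATAAAagcagctgac
S100a9, chr3:90695722-90695971, minus strand: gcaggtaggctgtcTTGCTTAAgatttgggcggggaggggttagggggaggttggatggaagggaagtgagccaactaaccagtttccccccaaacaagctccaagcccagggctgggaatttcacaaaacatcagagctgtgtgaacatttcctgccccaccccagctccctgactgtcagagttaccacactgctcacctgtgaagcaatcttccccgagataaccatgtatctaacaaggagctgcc
S100a4, chr3:90603520-90603769, plus strand: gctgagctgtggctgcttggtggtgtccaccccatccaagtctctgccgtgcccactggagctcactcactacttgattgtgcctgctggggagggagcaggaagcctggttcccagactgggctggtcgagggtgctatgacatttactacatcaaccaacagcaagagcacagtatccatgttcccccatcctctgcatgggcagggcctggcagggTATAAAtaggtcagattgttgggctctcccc

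The letters TATAAA begin 30 bases before the RefSeq start of S100a8, inside the longer first exon that GENCODE gives this gene, and 31 bases before the start of S100a4, and the 250 bases of S100a9 do not hold them. C/EBP factors are transcription factors of the granulocyte lineage, and their letters occur 236 bases before the start of S100a9 and in no window of S100a8 or S100a4. Of 32851 RefSeq promoter windows of 250 bases, 12.4% hold TATAAA and 9.56% hold TTGCNNAA, so both are common, and a match is a run of letters and not a shown binding site.

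The kept cells numbered 1962 in the Selinexor library and 1742 in the DMSO library, with 12771314 and 14209188 gene UMIs (unique molecular identifiers, counted molecules) in those libraries, and 0 barcodes occurred in both. The median cell held 3912 UMIs in the Selinexor library and 7786.5 in the DMSO library. Itgam, which encodes the sorted marker CD11b, had a UMI in 68.4% of Selinexor cells and 75.9% of DMSO cells. Cells were clustered without any S100 or annexin gene, so the described genes had no part in forming the clusters, and clusters were named from other markers. In the Selinexor and DMSO libraries the classes held, in cells, 153 and 214 early neutrophil-like (primary granule genes), 163 and 184 intermediate neutrophil-like (secondary granule genes), 920 and 518 late neutrophil-like, 373 and 21 monocyte-like, 53 and 190 macrophage-like and 34 and 5 dendritic-like. The late class joins 3 clusters with different library make-up (cluster 0 with 669 and 114 cells, cluster 1 with 23 and 378, cluster 7 with 228 and 26), which limits what the name covers. The macrophage-like name rests on mixed markers. The 10 leading genes of that cluster hold 3 listed macrophage markers (C1q genes), 3 listed dendritic markers (MHC class II genes) and the dendritic chemokine gene Ccl17, which is on neither list. Its 11 macrophage markers summed to 847 CPM with Selinexor and 1822 CPM with DMSO, against 1119 and 1286 CPM in monocyte-like cells, and its 11 dendritic markers to 17334 CPM with Selinexor and 11665 CPM with DMSO, so macrophage-like stands here for this 1 cluster (cluster 8). A basophil and mast cluster (cluster 12) held 2 and 9 cells and is not among the named classes compared below. Unnamed clusters held the other cells, chiefly cluster 3 with 14 and 363 cells, led by the stefin genes Csta3 and Stfa2 and by Dmkn, and the cycling cluster 6 with 149 and 179 cells. Each group is a single library, so how far cultures of 1 kind differ is unknown and no test was made. Every interval is a 95% interval that covers counting error alone. CPM, the unit of level throughout, is UMIs per 1000000 gene UMIs of the cells named.

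The 8 genes together took 8.36% of all gene UMIs in the Selinexor library and 12.6% in the DMSO library. S100a8 and S100a9 made up 88.7% of these UMIs in the Selinexor library and 91.7% in the DMSO library. Only 1 gene had more UMIs than this pair in each library: S100a9 and S100a8 ranked 2 and 3 in the Selinexor library, and 3 and 2 in the DMSO library. The other 6 genes made up 0.948% of Selinexor UMIs and 1.05% of DMSO UMIs, so the calprotectin pair carried nearly all of the family's total.

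S100a8 and S100a9, the calprotectin genes, were highest in intermediate neutrophil-like cells and close behind in early ones. They were lower in the late class as a whole and lowest in the macrophage-like and dendritic-like classes. Pooled over a class, S100a8 stood at 117995 CPM in the Selinexor library and 138285 CPM in the DMSO library in intermediate neutrophil-like cells. In early neutrophil-like cells it stood at 102408 CPM with Selinexor and 97007 CPM with DMSO. In late neutrophil-like cells it stood at 47936 CPM with Selinexor and 77252 CPM with DMSO. These late values average unlike clusters. With Selinexor, cluster 0 held 13135 CPM, cluster 1 held 102939 CPM in 23 cells and cluster 7 held 71030 CPM. With DMSO the same clusters held 14330, 83405 and 82934 CPM. Pooled, all 3 neutrophil-like states were far above the monocyte-like cells, which held 4090 CPM with Selinexor and, in 21 cells, 12695 CPM with DMSO. Macrophage-like cells held 927 CPM with Selinexor and 3712 CPM with DMSO, and dendritic-like cells of the Selinexor library 1007 CPM. In the Selinexor library the intervals of the last 2 classes overlap (855 to 1004 CPM and 909 to 1112 CPM), and the other named classes of each library had intervals apart.

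S100a9 followed the same order from intermediate, early and late neutrophil-like to monocyte-like cells. It stood at 135412 CPM with Selinexor and 144895 CPM with DMSO in intermediate neutrophil-like cells. In early ones it stood at 114347 CPM with Selinexor and 105307 CPM with DMSO, and in late ones at 45856 CPM with Selinexor and 68891 CPM with DMSO. In the late clusters 0, 1 and 7 it stood at 10494, 104566 and 69116 CPM with Selinexor. With DMSO these clusters held 8595, 74331 and 79231 CPM. Monocyte-like cells held 2020 CPM with Selinexor and 5568 CPM with DMSO, macrophage-like cells 783 CPM with Selinexor and 2669 CPM with DMSO, and dendritic-like cells of the Selinexor library 675 CPM. Pooled, the neutrophil-like states were again far above the others. The neutrophil-like classes held 81.1% of all S100a8 UMIs in the Selinexor library and 62.7% in the DMSO library, where cluster 3 held a further 24.0%.

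**Figure D1:**
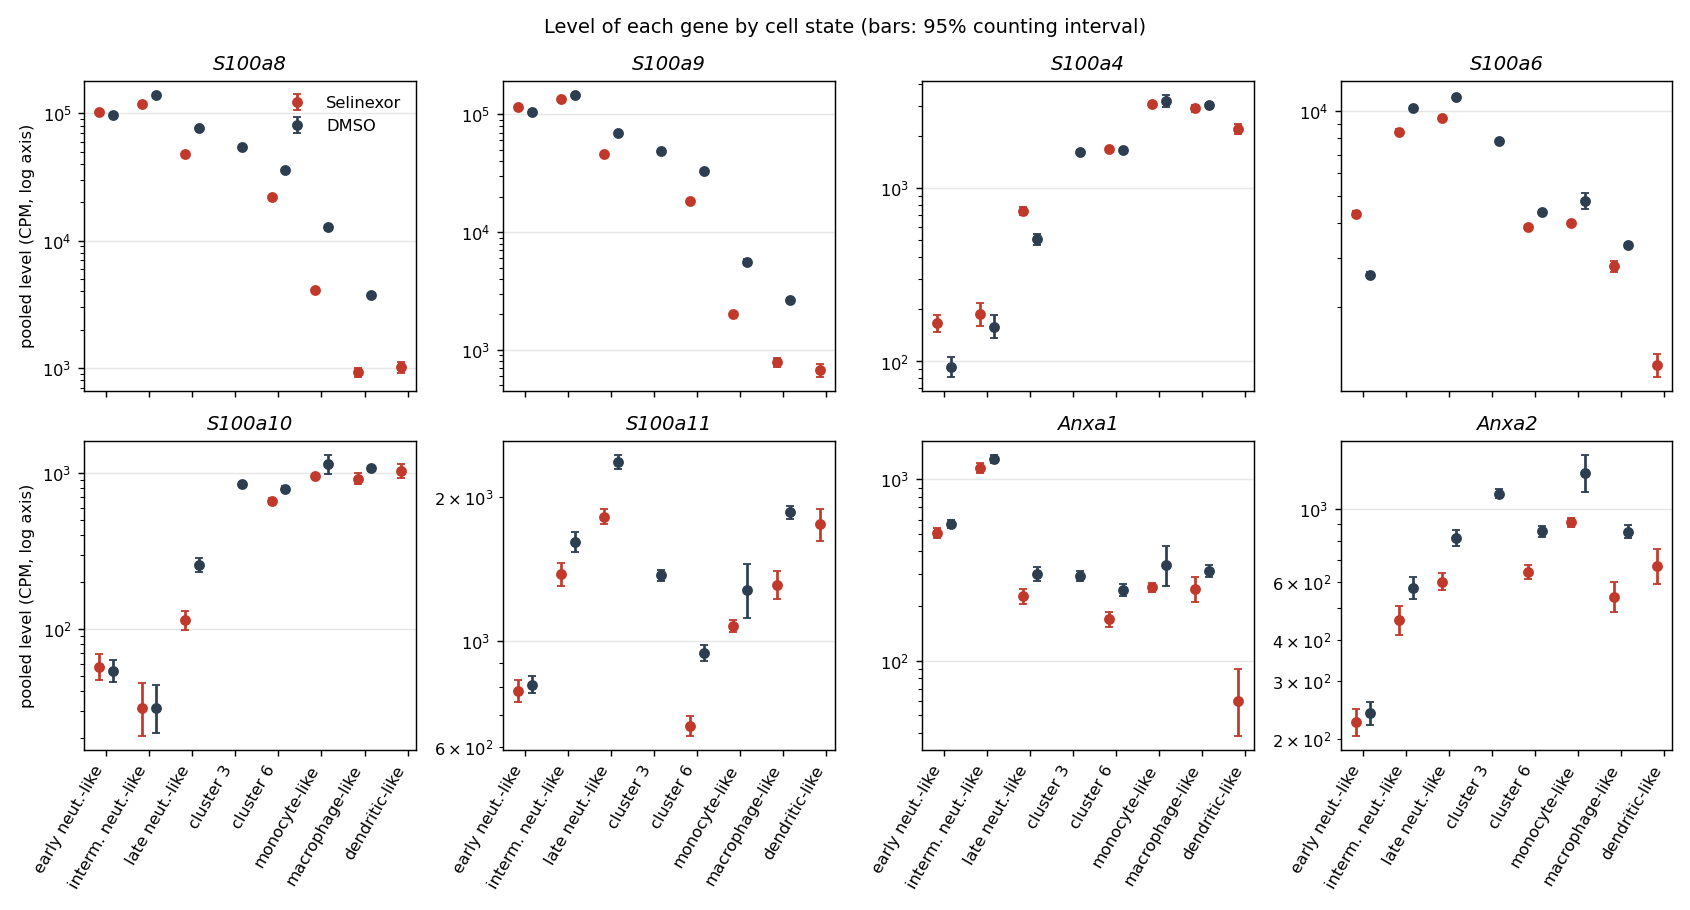
Pooled level of each of the 8 genes (CPM, log axis) by cell state, Selinexor (red) left of DMSO (dark), with 95% counting intervals. Cluster 3 and dendritic-like cells are drawn only for the library with at least 20 such cells. S100a8 and S100a9 lie at 97007 CPM or more in early and intermediate neutrophil-like cells and at 12695 CPM or less in the monocyte-like, macrophage-like and dendritic-like classes, while S100a4 and S100a10 run the other way.

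Single cells showed how evenly calprotectin was carried within a state. In intermediate neutrophil-like cells the median cell gave 24.3% of its UMIs to S100a8 and S100a9 in the Selinexor library (quartiles 17.4% and 31.3%) and 28.6% in the DMSO library (22.9% and 33.7%). In early neutrophil-like cells the medians were 23.9% with Selinexor and 21.9% with DMSO. Most cells of these stages were rich in calprotectin, since more than 10% of UMIs came from the pair in 91.5% of early cells with Selinexor and 93.0% with DMSO, and in 100% of intermediate cells with Selinexor and 98.4% with DMSO. Late neutrophil-like cells were spread far more widely, with a median of 1.16% and quartiles of 0.644% and 7.02% in the Selinexor library, and a median of 4.26% and quartiles of 0.922% and 16.1% in the DMSO library. Their median depth was also low, 1191.5 UMIs with Selinexor and 1987.5 with DMSO, against 4921 and 5654 in the intermediate class of the same libraries. Of the late clusters, cluster 0 had the lowest median depth, 1058 UMIs with Selinexor and 1040.5 with DMSO. The share of late neutrophil-like cells above 10% calprotectin was 20.2% with Selinexor and 36.3% with DMSO, and the share below 1% was 45.0% with Selinexor and 27.6% with DMSO.

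The calprotectin share of the median macrophage-like cell stood near that of dendritic-like cells, and the share of the median monocyte-like cell was higher. It was 0.216% of UMIs in monocyte-like cells of the Selinexor library and 0.519% in the 21 of the DMSO library, 0.150% and 0.175% in macrophage-like cells of the Selinexor and DMSO libraries, and 0.145% in dendritic-like cells. A UMI of S100a9 was found in 99.7% of monocyte-like cells and 97.1% of dendritic-like cells of the Selinexor library, at median depths of 11781 and 11139.5 UMIs. After each cell was thinned to 2000 UMIs these shares were 76.5% and 60.6%. Detection of S100a9 was thus common even in dendritic-like cells, the named class with its lowest pooled level in the Selinexor library. Per 100 UMIs of S100a9 there were 202 UMIs of S100a8 in monocyte-like, 118 in macrophage-like and 149 in dendritic-like cells of the Selinexor library, and 3.44, 8.22 and 9.69 UMIs of the secondary granule gene Ngp in those 3 classes. These proportions differed between the classes, and the part of free RNA in the low levels was not tested.

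**Figure D2:**
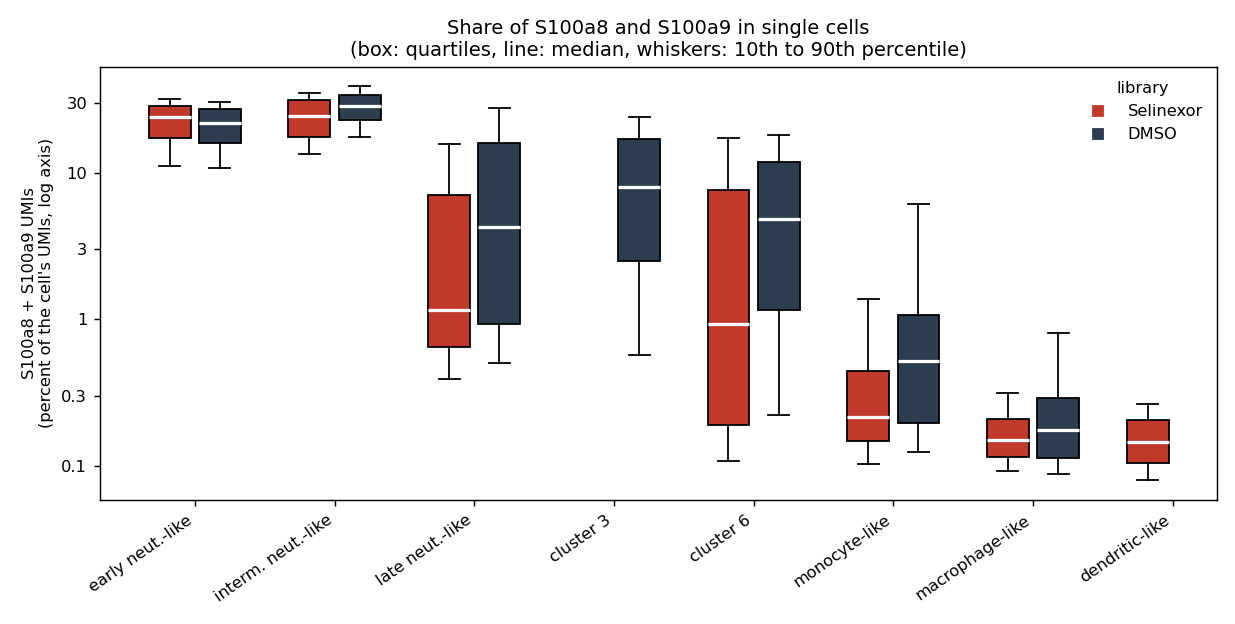
Share of each cell's UMIs that come from S100a8 and S100a9 (percent, log axis) by cell state, Selinexor (red) left of DMSO (dark). Boxes are quartiles, white lines medians and whiskers the 10th and 90th percentiles over cells. Medians lie between 21.9% and 28.6% in early and intermediate neutrophil-like cells and at 0.150% and 0.175% in macrophage-like cells, with the late class, cluster 3 and cluster 6 spread between.

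S100a8 and S100a9 were carried in nearly equal numbers, and the balance shifted with state. A UMI counts 1 captured molecule whatever the length of the RNA, so the pair is compared as UMIs per UMI. There were 0.896 S100a8 UMIs per S100a9 UMI with Selinexor and 0.921 with DMSO in early neutrophil-like cells, and 0.871 with Selinexor and 0.954 with DMSO in intermediate ones. In late neutrophil-like cells the ratio was 1.05 with Selinexor and 1.12 with DMSO. S100a9 led in these granule-making stages and S100a8 in the late, monocyte-like and macrophage-like ones. The ratio reached 2.02 (interval 1.97 to 2.08) in monocyte-like cells of the Selinexor library and 2.28 (2.12 to 2.46) in the 21 of the DMSO library, and 1.18 with Selinexor and 1.39 with DMSO in macrophage-like cells. Across cells thinned to 2000 UMIs, log2(UMIs + 1) of both genes had a Pearson r of 0.946 over 1179 Selinexor cells and 0.932 over 1428 DMSO cells. Within single named classes r was lower, from 0.07 in dendritic-like Selinexor cells to 0.89 in early neutrophil-like DMSO cells. Cells of 1 library share a culture and a capture, so this is a description of these cells.

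S100a4 and S100a10 ran opposite to calprotectin. S100a4, the myosin-binding member, stood at 3045 CPM in monocyte-like cells of the Selinexor library and 3180 CPM in those of the DMSO library, and at 2887 CPM with Selinexor and 3019 CPM with DMSO in macrophage-like cells. Dendritic-like cells of the Selinexor library held 2207 CPM. These classes were the top of its range, and the monocyte-like and macrophage-like intervals overlap in each library. In late neutrophil-like cells S100a4 was at 735 CPM with Selinexor and 508 CPM with DMSO. In intermediate ones it was at 188 CPM (160 to 219) with Selinexor and 159 CPM (136 to 185) with DMSO, and in early ones at 167 CPM (149 to 187) with Selinexor and 93.2 CPM (81.9 to 106) with DMSO, so that the early and intermediate states of the Selinexor library overlap. Among early neutrophil-like cells, a UMI of S100a4 was present in 24.2% of thinned Selinexor cells and 11.7% of thinned DMSO cells, against 95.7% of thinned monocyte-like cells of the Selinexor library.

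S100a10, the annexin A2 partner, had a like pattern at lower levels. It was at 956 CPM with Selinexor and 1140 CPM with DMSO in monocyte-like cells, 922 CPM with Selinexor and 1069 CPM with DMSO in macrophage-like cells and 1035 CPM in dendritic-like cells of the Selinexor library, and the Selinexor intervals of these 3 classes overlap. In intermediate neutrophil-like cells it was at 31.3 CPM in each library, on 27 UMIs with Selinexor and 34 UMIs with DMSO. Early neutrophil-like cells held 57.8 CPM with Selinexor and 54.3 CPM with DMSO, and late ones 114 CPM with Selinexor and 259 CPM with DMSO. Across thinned cells S100a4 and S100a10 had an r of 0.564 with Selinexor and 0.562 with DMSO, while S100a4 had an r with S100a8 of -0.696 with Selinexor and -0.660 with DMSO. These r values span all states. Within classes, S100a4 with S100a8 had -0.10 with Selinexor and 0.04 with DMSO in early neutrophil-like cells. In the same order it had -0.11 and 0.09 in intermediate, -0.09 and -0.26 in late, and 0.12 and -0.09 in macrophage-like cells. Monocyte-like cells had -0.35 with Selinexor and -0.52 with DMSO, the latter on 20 cells.

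Cluster 3, which was almost confined to the DMSO library, and the cycling cluster 6 held both patterns at once. In the 363 DMSO cells of cluster 3, S100a8 was at 54499 CPM and S100a9 at 48387 CPM, and S100a4 was at 1612 CPM and S100a10 at 845 CPM. S100a4 and S100a10 were thus above their level in each neutrophil-like class. Within the cluster the patterns were divided between cells. Among 362 thinned cells, S100a8 and S100a4 had an r of -0.570, and the 161 cells with over 10% calprotectin averaged 1.42 S100a4 UMIs against 6.63 in the 54 cells with under 1%. In cluster 6 the same r was -0.485 with Selinexor and -0.550 with DMSO. S100a4 was still seen in 55.9% of the 161 calprotectin-rich cells of cluster 3, against 13.3% of the 181 calprotectin-rich intermediate neutrophil-like cells of the same library. This was not particular to cluster 3. Among calprotectin-rich cells of cluster 6 the share was 71.9% with Selinexor and 50.0% with DMSO. Among late neutrophil-like ones it was 50.7% with Selinexor and 26.9% with DMSO.

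S100a6 and S100a11 were present in every state at levels that changed less. S100a6, or calcyclin, was highest in late neutrophil-like cells at 9455 CPM with Selinexor and 11233 CPM with DMSO, next in intermediate ones at 8462 CPM with Selinexor and 10247 CPM with DMSO, and lowest in dendritic-like cells of the Selinexor library at 1245 CPM. Monocyte-like cells held 3996 CPM with Selinexor and 4792 CPM with DMSO, and macrophage-like cells 2802 CPM with Selinexor and 3327 CPM with DMSO. The step from intermediate to late was one of pooled values. The median cell held 8106 CPM with Selinexor and 9586 CPM with DMSO in the intermediate class, and 7836 and 8978 CPM in the late class. S100a6 was therefore higher in intermediate and late than in early neutrophil-like cells without being confined to them. Early neutrophil-like cells of the DMSO library, at 2615 CPM, were below both monocytic classes. S100a11, a partner of Anxa1, was lowest among named classes in early neutrophil-like cells at 786 CPM with Selinexor and 810 CPM with DMSO, and highest in late ones at 1817 CPM with Selinexor and 2364 CPM with DMSO, although dendritic-like cells of the Selinexor library, at 1749 CPM (1619 to 1887), overlap the late ones (1756 to 1880). Its monocyte-like level was 1072 CPM with Selinexor and 1275 CPM with DMSO, and its macrophage-like level 1307 CPM with Selinexor and 1853 CPM with DMSO.

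The annexins divided by stage. Anxa1, which restrains neutrophils, peaked in intermediate neutrophil-like cells at 1161 CPM with Selinexor and 1295 CPM with DMSO, was at 508 CPM with Selinexor and 565 CPM with DMSO in early ones and was at 226 CPM with Selinexor and 301 CPM with DMSO in late ones. Monocyte-like cells (253 CPM with Selinexor, 336 CPM with DMSO) and macrophage-like cells (248 CPM with Selinexor, 312 CPM with DMSO) were near the late neutrophil-like level, with overlapping intervals within each library, and dendritic-like cells of the Selinexor library had the lowest level, 60.1 CPM on 23 UMIs. Anxa2 differed from it after the intermediate stage, at 225 CPM with Selinexor and 240 CPM with DMSO in early cells, 458 CPM with Selinexor and 575 CPM with DMSO in intermediate ones, and 601 CPM with Selinexor and 816 CPM with DMSO in late ones. Its highest level was in monocyte-like cells at 910 CPM with Selinexor and 1281 CPM with DMSO, macrophage-like cells held 541 CPM with Selinexor and 852 CPM with DMSO, and dendritic-like cells of the Selinexor library 669 CPM. Both annexins were thus higher in intermediate than in early cells, and from intermediate to late cells Anxa1 was lower and Anxa2 higher.

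Set against the monocytic pool within each library, the granulocytic pool (all 3 neutrophil-like classes) held more S100a8 and S100a9 and less S100a4 and S100a10. The granulocytic pool had 1236 cells with Selinexor and 916 with DMSO, and the monocytic pool 426 and 211. Monocyte-like cluster 2 supplied most of the monocytic pool in the Selinexor library and macrophage-like cluster 8 most of it in the DMSO library, so the same name covers different cells in them. S100a8 had 83445 CPM in the granulocytic and 3685 CPM in the monocytic pool of the Selinexor library, a log2 ratio of 4.50, and 99915 and 4387 CPM in the DMSO library, a log2 ratio of 4.51. S100a9 had log2 ratios of 5.61 with Selinexor and 5.16 with DMSO, from 90783 against 1862 CPM and from 103050 against 2887 CPM. These 2 genes lay above the 99th percentile of measured genes in both libraries.

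S100a4 had 400 CPM in the granulocytic and 3025 CPM in the monocytic pool of the Selinexor library (log2 ratio -2.92), and 227 and 3031 CPM in the DMSO library (-3.73). S100a10 had log2 ratios of -3.64 with Selinexor and -3.30 with DMSO. Both lay below the 2nd percentile. S100a6 had log2 ratios of 0.90 with Selinexor and 0.96 with DMSO, and Anxa1 1.03 in both. Anxa2 had -1.04 with Selinexor and -0.89 with DMSO, and S100a11 0.25 with Selinexor and -0.34 with DMSO. S100a6, Anxa1 and Anxa2 therefore lay at the edge of the 2-fold line, and other settings moved each of them across it in at least 1 library. S100a11 changed sides between the libraries.

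At 2-fold, 3 of the 8 genes were higher in the granulocytic pool in each library, where 7.20% of 8745 measured genes were with Selinexor and 6.35% of 8190 with DMSO. On the other side, 3 of 8 were lower with Selinexor and 2 of 8 with DMSO, where 15.8% and 15.7% of genes were. The median log2 ratio of the 8 genes was 0.58 with Selinexor and 0.31 with DMSO, and that of all measured genes was -0.31 with Selinexor and -0.33 with DMSO. The family thus has members on both sides of the lineage contrast. S100a8, S100a9 and, near the line, Anxa1 were on the granulocytic side. S100a4, S100a10 and, with Selinexor and near the line, Anxa2 were on the monocytic side. The side of Anxa1 depended on the stage. Against the monocytic pool, intermediate neutrophil-like cells had 2.20 with Selinexor and 2.04 with DMSO, and late ones -0.16 with Selinexor and -0.06 with DMSO.

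**Figure D3:**
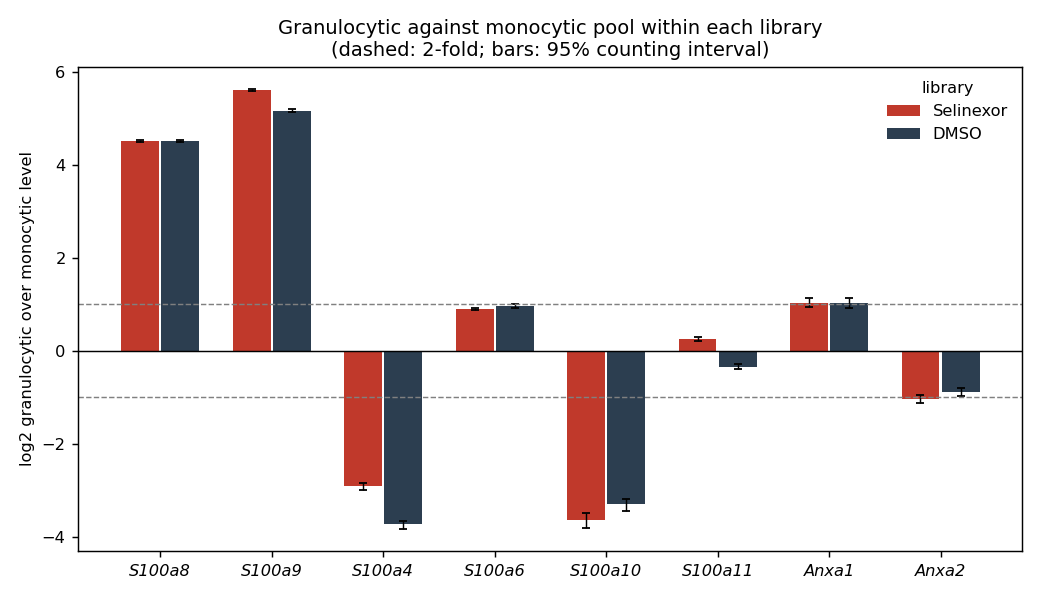
Log2 ratio of the granulocytic over the monocytic level for each gene, in the Selinexor library (red, left) and the DMSO library (dark, right), with 95% counting intervals and dashed lines at 2-fold. S100a8 and S100a9 lie between 4.50 and 5.61, S100a4 and S100a10 between -3.73 and -2.92, and S100a6, Anxa1 and Anxa2 lie near the 2-fold lines.

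Between the cultures, the calprotectin genes took a smaller share of the Selinexor library than of the DMSO library. S100a8 had 36609 CPM with Selinexor and 58452 CPM with DMSO, a log2 ratio of -0.68 (interval -0.68 to -0.67). S100a9 had 37491 CPM with Selinexor and 57218 CPM with DMSO, a log2 ratio of -0.61 (-0.62 to -0.60). S100a4 ran the other way, at 1757 CPM with Selinexor and 1359 CPM with DMSO (log2 ratio 0.37). The other 5 were lower by less. S100a6 had 5054 CPM with Selinexor and 5951 CPM with DMSO (-0.24), and S100a10 576 CPM with Selinexor and 598 CPM with DMSO (-0.06). S100a11 had 1115 CPM with Selinexor and 1384 CPM with DMSO (-0.31). Anxa1 had 324 CPM with Selinexor and 413 CPM with DMSO (-0.35), and Anxa2 651 CPM with Selinexor and 784 CPM with DMSO (-0.27). These 5 share a direction but not a size near 1.5-fold. At 1.5-fold, 2 of 8 genes were lower with Selinexor, where 3.86% of 10387 measured genes were, and 0 of 8 were higher, where 9.82% were. The median over the 8 genes was -0.29, and over all measured genes 0.13. Both S100a8 and S100a9 lie close to the 1.5-fold line, S100a9 being 1.53-fold lower, and with each cell thinned to 2000 UMIs their log2 ratios were -0.51 and -0.43, which do not pass it.

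The mix of cells moved with these library values. Late neutrophil-like cells made up 46.9% of Selinexor cells and 29.7% of DMSO cells, cluster 3 made up 0.714% of Selinexor cells and 20.8% of DMSO cells, and monocyte-like cells 19.0% of Selinexor cells and 1.21% of DMSO cells. In pooled values of this kind, fewer cells of a type and less RNA per cell cannot be told apart. When the 9 clusters with at least 20 cells in both libraries were given the same weights in both, the log2 ratio was -0.16 for S100a8 (47176 CPM with Selinexor, 52629 CPM with DMSO) and -0.06 for S100a9 (49800 CPM with Selinexor, 51748 CPM with DMSO). S100a4 came to -0.01 and S100a6 to 0.05. With the libraries' own weights for the same 9 clusters, S100a8 stood at -0.70 and S100a9 at -0.66. Anxa2 at -0.45, Anxa1 at -0.29, S100a10 at -0.27 and S100a11 at -0.24 stayed below 0, and 0 of 8 genes passed 1.5-fold, where 6.90% of all genes were higher and 5.07% lower. The 9 clusters hold 95.3% of Selinexor UMIs and 73.6% of DMSO UMIs, and cluster 3 is not among them.

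Over the pooled neutrophil-like classes, 1 of 8 genes was 1.5-fold higher with Selinexor, where 9.64% of 8342 genes were, and 0 of 8 were lower, where 5.83% were. The 1 gene was S100a4, at 400 CPM with Selinexor and 227 CPM with DMSO, a log2 ratio of 0.81, while S100a8 had -0.26 and S100a9 -0.18. By cell number, the late cells of this pool lie mostly in cluster 0 with Selinexor and cluster 1 with DMSO. S100a4 had 0.04 and -0.27 in these clusters, with intervals that include 0. It had 1.17 in cluster 7, on 38 UMIs in the DMSO cells, and 0.83 in early neutrophil-like cells. The pool is a sum of UMIs, and with Selinexor cluster 7 held 721 UMIs of S100a4 and cluster 0 held 593. Over the monocytic pool 0 of 8 were higher, where 5.83% of 8385 genes were, and 2 of 8 were lower, where 8.37% were. These were S100a11 (-0.71) and S100a9 (-0.63), and the pool holds mostly different clusters in each library, as given above.

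Within single classes, different members were past 1.5-fold. In early neutrophil-like cells S100a8 and S100a9 had log2 ratios of 0.08 and 0.12. S100a6 was higher with Selinexor, at 4306 CPM against 2615 CPM with DMSO, a log2 ratio of 0.72 (0.67 to 0.77). Its median over cells was 4228 CPM with Selinexor and 1998 CPM with DMSO, so the difference was also that of the typical cell. S100a4 was also higher, on 309 UMIs with Selinexor and 244 with DMSO, with a log2 ratio of 0.83 (0.59 to 1.09). These were the 2 of 8 genes past 1.5-fold there, where 5.23% of 6257 genes were higher, and 0 of 8 were lower, where 7.16% were. Beside them in these cells, the 6 primary granule markers summed to 3184 CPM with Selinexor and 6383 CPM with DMSO, and the 10 monocyte markers to 2915 CPM with Selinexor and 1532 CPM with DMSO, with 0 markers of either list at 0. Their part in the S100a6 and S100a4 ratios was not tested.

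In intermediate neutrophil-like cells, 0 of 8 genes passed 1.5-fold, where 8.98% of 3428 genes were higher and 10.6% lower. The log2 ratios there ran from -0.33 for Anxa2 to 0.24 for S100a4, with S100a8 at -0.23 and S100a9 at -0.10. The interval of S100a4 (-0.08 to 0.56) and that of S100a10 (-0.78 to 0.77), on 27 UMIs with Selinexor and 34 with DMSO, include 0.

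In late neutrophil-like cells S100a8 had a log2 ratio of -0.69, S100a9 -0.59 and S100a10 -1.17, and these 3 of 8 were at least 1.5-fold lower with Selinexor, where 6.97% of 5838 genes were. S100a4 had 0.53, and 0 of 8 were 1.5-fold higher, where 17.3% of genes were. The calprotectin values did not hold inside the clusters that make up this class. S100a8 had log2 ratios of -0.13 in cluster 0, 0.30 in cluster 1 and -0.22 in cluster 7, and S100a9 0.29, 0.49 and -0.20 in the same clusters. S100a10 had -1.65 in cluster 0, on 34 UMIs in the DMSO cells, and -1.49 in cluster 1, on 7 UMIs in the Selinexor cells, but 0.46 in cluster 7, on 12 UMIs in the DMSO cells.

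In macrophage-like cells S100a8 had a log2 ratio of -2.0, S100a9 -1.77 and Anxa2 -0.66, and these 3 of 8 were at least 1.5-fold lower with Selinexor, where 12.7% of 6069 genes were, while 0 of 8 were higher, where 8.45% were. The calprotectin values rested on few cells. In the DMSO library 10 of 190 macrophage-like cells held 64.6% of the class's S100a8 and S100a9 UMIs, and in the Selinexor library 10 of 53 held 39.6%. The median macrophage-like cell had 778 CPM of S100a8 with Selinexor and 911 CPM with DMSO, close to the 871 CPM of the median dendritic-like cell. The intermediate neutrophil markers moved with them, at a summed 334 CPM with Selinexor and 842 CPM with DMSO over 10 genes, 1 of which was at 0 in each library. The 10 late neutrophil markers summed to 760 CPM with Selinexor, 1 of them at 0, and 1565 CPM with DMSO. Their part in the result was not tested. Anxa2 did not share this pattern, since its median cell held 449 CPM with Selinexor and 769 CPM with DMSO.

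Clusters 6 and 9, the unnamed clusters shared by the libraries, had less calprotectin with Selinexor. In cycling cluster 6, S100a8 had 21855 CPM with Selinexor and 36033 CPM with DMSO (log2 ratio -0.72) and S100a9 18447 CPM with Selinexor and 33183 CPM with DMSO (-0.85), and these were the 2 of 8 past 1.5-fold, where 5.30% of 7373 genes were lower, while 0 of 8 were higher, where 12.4% were. Markers of other cell types differed beside them in cluster 6. The 10 monocyte markers summed to 3189 CPM with Selinexor and 1501 CPM with DMSO, the 10 late neutrophil markers to 1226 CPM with Selinexor and 2472 CPM with DMSO, the 10 intermediate ones to 4129 CPM with Selinexor and 2564 CPM with DMSO, and the 11 dendritic ones to 258 CPM with Selinexor and 769 CPM with DMSO. At 0 were 0 monocyte markers in each library, 0 late ones with Selinexor and 1 with DMSO, 1 intermediate one with Selinexor and 0 with DMSO, and 3 dendritic ones with Selinexor and 2 with DMSO. Their part in the result was not tested. The median cell of cluster 6 gave 0.928% of its UMIs to calprotectin with Selinexor and 4.82% with DMSO. In cluster 9, a low-depth cluster led by chemokine genes, the log2 ratio was -1.50 for S100a8 and -1.83 for S100a9, but the median cells held 0.840% with Selinexor and 0.938% with DMSO, and 22.9% of its 498 measured genes were 1.5-fold lower. In it S100a11 (0.80) and S100a4 (0.74, on 29 UMIs with Selinexor and 22 with DMSO) were 2 of 6 measured members past the line upward, where 18.7% of genes were. The monocyte-like cluster 2 had -1.63 and -1.46 for the pair, where 10 of 21 DMSO cells held 94.6% of the calprotectin UMIs.

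Among the 8 genes, Anxa1 and Anxa2 were those with a log2 ratio below 0 in every cluster where they were measured (at least 50 UMIs). For Anxa1 these were 8 of 8 clusters, from -2.07 to -0.14, and for Anxa2 9 of 9, from -0.66 to -0.09. The interval included 0 in 2 of the 8 clusters for Anxa1 and 3 of the 9 for Anxa2. In cluster 9 Anxa1 had 6 UMIs with Selinexor and 17 with DMSO, and its interval (-2.79 to 0.26) also includes 0. At 1.5-fold, 1 of 8 clusters was past the line for Anxa1 and 2 of 9 for Anxa2, and the Anxa1 value of -2.07 in cluster 0 rests on 49 UMIs in the DMSO cells. Of all genes, 8.52% of the 481 measured in all 9 clusters and 7.03% of the 2092 measured in the 8 other than cluster 9 were likewise below 0 in each. In late neutrophil-like cells with at least 2000 UMIs, not thinned, Anxa1 had 0.16. S100a8 was below 0 in 7 of 9 clusters, S100a9 in 6, S100a6 in 6, S100a11 in 7 and S100a4 in 3, and S100a10 in 5 of the 8 where it was measured.

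**Figure D4:**
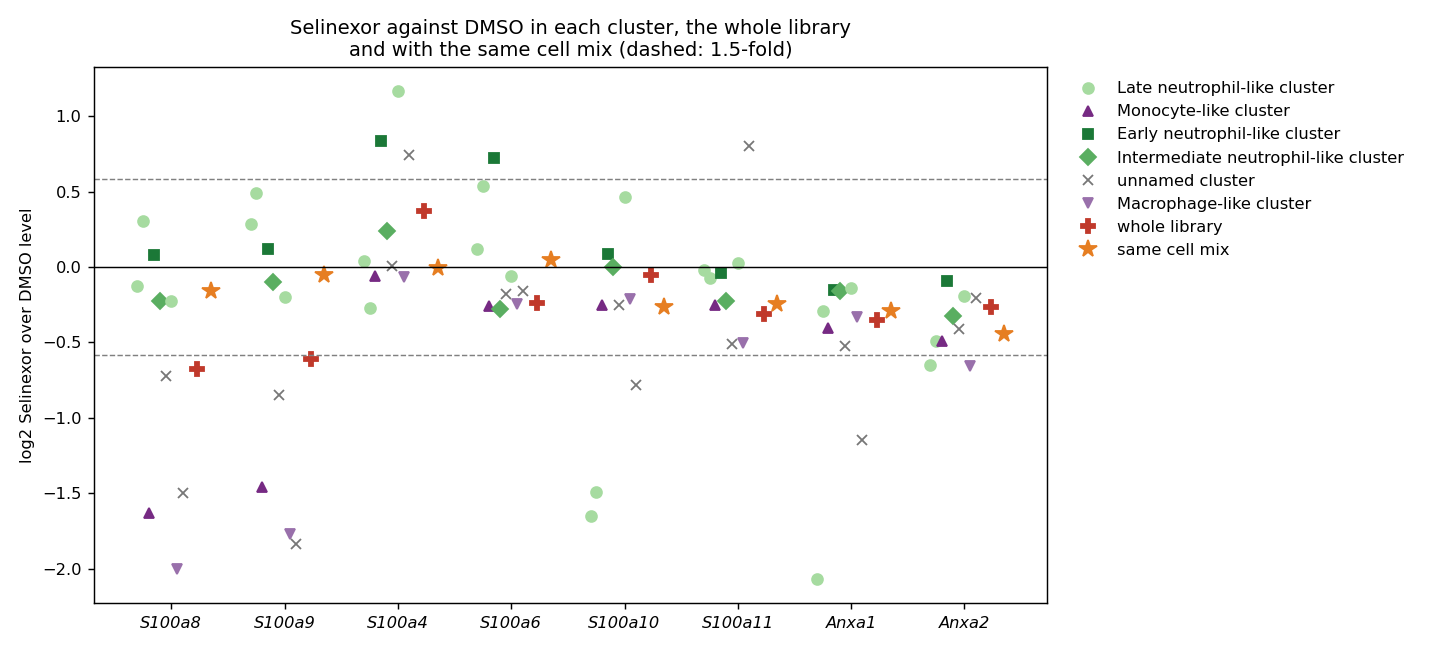
Log2 ratio of the Selinexor over the DMSO level for each gene, in 9 clusters (green, early, intermediate and late neutrophil-like; purple, monocyte-like and macrophage-like; grey crosses, unnamed), in the whole library (red plus) and with the same cell mix (orange star), with dashed lines at 1.5-fold. For S100a8 and S100a9 the neutrophil-like clusters lie between -0.23 and 0.49 while 4 other clusters lie at -0.72 or lower, and all 9 clusters lie below 0 for Anxa1 and Anxa2, of which cluster 9 holds under 50 UMIs of Anxa1.

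The second partner pair, S100a10 with Anxa2, was not kept in a fixed proportion. There were 0.0684 S100a10 UMIs per Anxa2 UMI with Selinexor and 0.0544 with DMSO in intermediate neutrophil-like cells, 0.257 with Selinexor and 0.226 with DMSO in early ones, and 0.190 with Selinexor and 0.317 with DMSO in late ones. In monocyte-like cells the ratio was 1.05 with Selinexor and 0.890 with DMSO, and in macrophage-like cells 1.71 with Selinexor and 1.25 with DMSO. Anxa2 transcripts thus outnumbered those of S100a10 in the neutrophil-like states, while in the monocytic classes the counts were of the same order. Within the classes the 2 genes had an r between -0.11 and 0.12 across thinned cells. Over all thinned cells of a library their r was 0.21 with Selinexor and 0.28 with DMSO. S100a10 had a UMI in 5.77% to 28.0% of thinned cells of the neutrophil-like classes, and counts this sparse limit r there.

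**Figure D5:**
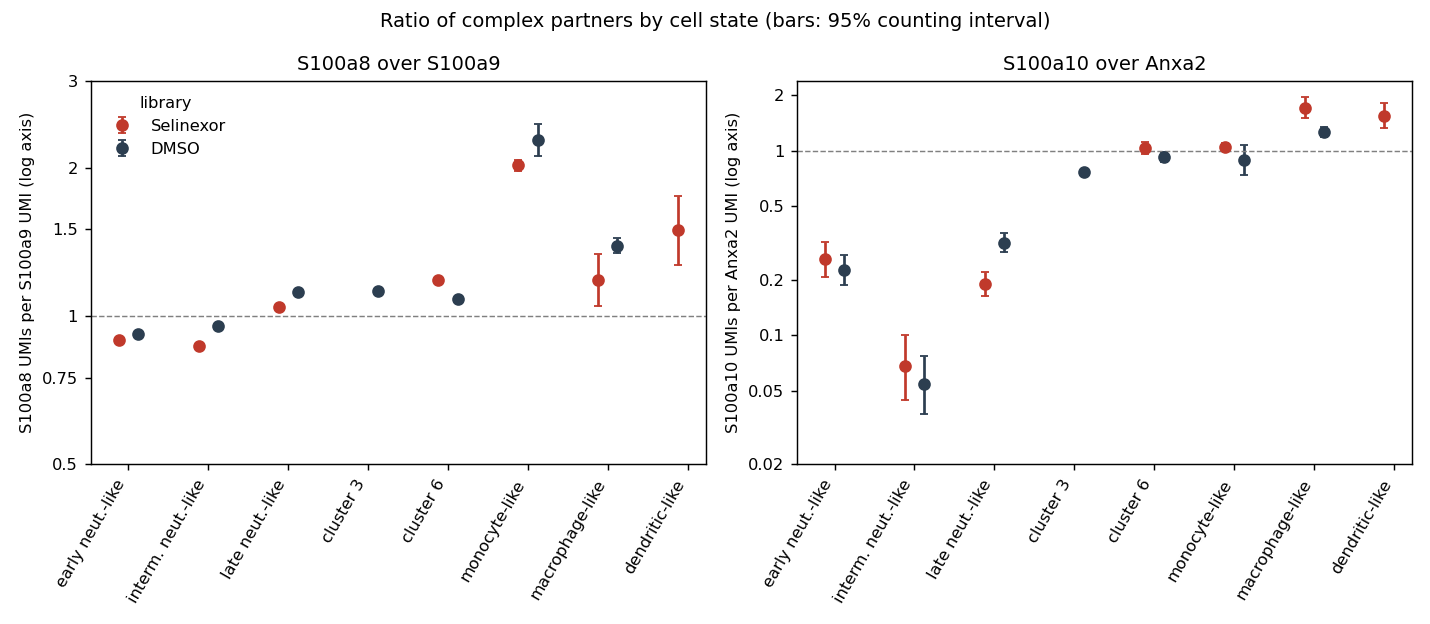
UMIs of S100a8 per UMI of S100a9 (left) and of S100a10 per UMI of Anxa2 (right), both on log axes, by cell state, Selinexor (red) left of DMSO (dark), with 95% counting intervals. The left ratio lies between 0.871 and 0.954 in early and intermediate neutrophil-like cells and above 2 in monocyte-like cells; the right ratio lies at or below 0.317 in the neutrophil-like states and between 0.890 and 1.71 in monocyte-like and macrophage-like cells.

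Few other genes of either family were measured, and 0 of them passed 1.5-fold, where 9.82% of all measured genes were higher and 3.86% lower. With so few genes, 0 is near those shares. Of 11 other S100 genes, 3 were measured (at least 50 UMIs over both libraries) with 0 past the line in either direction. S100a1 had 116 CPM with Selinexor and 82.8 CPM with DMSO (log2 ratio 0.48). S100a13 had 209.6 CPM with Selinexor and 224 CPM with DMSO (-0.10), and S100a5 -0.13 on 26 UMIs with Selinexor and 33 with DMSO. Of 10 other annexins, 6 were measured and 0 passed. Anxa5 had 304 CPM with Selinexor and 249 CPM with DMSO (0.29), Anxa3 116 CPM with Selinexor and 126 CPM with DMSO (-0.12) and Anxa4 94.9 CPM with Selinexor and 74.9 CPM with DMSO (0.34). Anxa4 shared the lineage side of S100a4, with granulocytic over monocytic log2 ratios of -1.73 with Selinexor and -2.07 with DMSO.

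Among the receptors of these proteins, 7 were measured, and 2 of them passed 1.5-fold upward with Selinexor and 0 downward, set against the 9.82% and 3.86% of all genes. Fpr2, the receptor of Anxa1, had 192 CPM with Selinexor and 118 CPM with DMSO (log2 ratio 0.70), and Cd36, a scavenger receptor, had 51 and 16 UMIs in those libraries (1.23). Cd33, a surface receptor of myeloid cells, had 197 CPM with Selinexor and 151 CPM with DMSO (0.38), and Bsg, which encodes basigin, 191 CPM with Selinexor and 246 CPM with DMSO (-0.36). Fpr1, another formyl peptide receptor, had 62.0 CPM with Selinexor and 82.1 CPM with DMSO (-0.40), and the calprotectin receptor Tlr4 had 42.4 CPM with Selinexor and 30.3 CPM with DMSO (0.47). With the same cell mix Cd36, at 0.66, was the 1 of 7 past 1.5-fold upward, where 6.90% of all genes were, and Fpr2 stood at 0.44.

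Of 8 measured binding partners, 1 was 1.5-fold higher and 0 lower, where 9.82% and 3.86% of all genes were. This was Ahnak, a large scaffold bound by S100a10 with Anxa2, at 415 CPM with Selinexor and 267 CPM with DMSO (log2 ratio 0.64), and at 0.05 with the same cell mix. The S100a4 target Myh9, a non-muscle myosin heavy chain, had 640 CPM with Selinexor and 502 CPM with DMSO (0.35). Tln1, which encodes talin, had 316 CPM with Selinexor and 308 CPM with DMSO (0.03), and Sri, which encodes sorcin, 226 CPM with Selinexor and 286 CPM with DMSO (-0.34). Ahnak lay on the monocytic side, with granulocytic over monocytic log2 ratios of -2.40 with Selinexor and -3.06 with DMSO.

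Of 10 transcription factors listed as regulators of the calprotectin genes, 3 were 1.5-fold higher and 1 lower, where 9.82% and 3.86% of all genes were. Irf8, which directs monocyte and dendritic fate, had 92.2 CPM with Selinexor and 38.8 CPM with DMSO (log2 ratio 1.23). Klf4, a monocyte factor, had 111 CPM with Selinexor and 59.8 CPM with DMSO (0.88), and Stat3, which acts below the IL-6 receptor, had 115 CPM with Selinexor and 70.9 CPM with DMSO (0.69). Cebpe, which is needed for secondary granules, was the 1 lower gene at 77.7 CPM with Selinexor and 138 CPM with DMSO (-0.82). In the Selinexor library Irf8 and Klf4 had granulocytic over monocytic log2 ratios of -2.91 and -3.35, and Cebpe one of 4.61. With the same cell mix they stood at 0.62 for Irf8, 0.33 for Klf4, 0.52 for Stat3, -0.60 for Cebpe and 0.60 for Cebpa, so Irf8 and Cebpa were then past the line upward and Cebpe downward, 2 and 1 of 10 genes, where 6.90% and 5.07% of all genes were. The most counted of the list had values near 0, with Cebpb at 777 CPM with Selinexor and 808 CPM with DMSO (-0.06) and Spi1 at 419 CPM with Selinexor and 440 CPM with DMSO (-0.07), and Cebpd stood at -0.39. Of 11 measured calcium buffers and sensors, 0 passed in either direction, with Calr at a log2 ratio of -0.26 and Calm2 at -0.24.

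The genes whose levels ran most like each member were found over 11 class sums, 6 of the Selinexor and 5 of the DMSO library, among 5295 genes with at least 500 UMIs. S100a8 and S100a9 were each other's nearest gene (Pearson r 0.993), followed for S100a8 by Adgrg3 and Pde2a (0.988 and 0.978) and for S100a9 by Lcn2 and Pglyrp1 (0.990 and 0.989). S100a4 was nearest to Ctss, Rab12 and Anxa4 (0.984 to 0.980), and S100a10 to Cyb5r3, Tnfaip1 and Fkbp1a (0.979 to 0.975). The other 4 had looser neighbours: Upp1 and Grina for S100a6 (0.943 and 0.934), Trib1, Selplg and Smap2 for S100a11 (0.933 to 0.915), G6pdx and Arhgap15 for Anxa1 (0.946 and 0.915) and Capn2, Mroh1 and Pi4ka for Anxa2 (0.944 to 0.933). The sums share 2 libraries, and the best of 5295 candidates over 11 points was picked each time, so these values are descriptions.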

How the data were processed

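Per the submitters' processing notes, the authors made the deposited UMI counts with Cell Ranger 6.1.2 against mm10. For the annotation release and the barcode rule, no source used here gives an answer. Multiplexing tags (12 features) were kept out of gene totals, and every barcode had its library's tag highest. A cell was kept from 200 detected genes upward and if mitochondrial UMIs stayed under 10%, which left out 22 Selinexor and 41 DMSO barcodes. The doublet caller in scanpy 1.11.5 marked 5 Selinexor and 1 DMSO cells, 0.162% of those tested, so doublets were in effect not removed. Clustering used 2000 variable genes without S100 and annexin genes, 30 principal components, 15 neighbours and the Leiden method (leidenalg 0.10.2) at resolution 1. Each cluster was matched to the marker list with the highest mean log2 ratio over other cells. It took that name when 3 or more genes of the list were 2-fold higher than in other cells. It stayed unnamed if its 10 leading genes held more markers of another list. The same held below 0.333 of the median depth with no marker of its list among the leading genes. Counts were summed and scaled to CPM. Log2 ratios are on the log2(CPM + 1) scale, which understates changes of low genes. Intervals are exact Poisson, conditional binomial or Clopper-Pearson. A gene is called at 1.5-fold between cultures and 2-fold between lineages, and ratios were tested on simulated data. For the same-mix value each cluster was weighted by the mean of its UMI shares in the libraries. The text names all 8 members, the list genes past 1.5-fold with up to 3 of the most counted others, some others being named beyond this rule after their values were seen, and the 3 most alike genes of each member, except a few genes that are not reported here. The members, lists and markers were chosen with earlier results of these data known. Alternatives are given in the closing section.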

Additional observations from a re-analysis of the deposited data

Results flagged for a closer look

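Calprotectin and calcyclin genes had ratios of opposite sign in different classes, with both counting intervals leaving out 0 and at least 1 of the values past 1.5-fold. The difference between the classes was not tested, since each group has 1 library. S100a8 had a log2 ratio of Selinexor over DMSO of 0.0782 in early neutrophil-like cells and -2.0 in macrophage-like cells. S100a9 had 0.119 in early neutrophil-like cells and -1.77 in macrophage-like cells. The early values are small, 1.06-fold for S100a8 and 1.09-fold for S100a9. The macrophage-like values rested on few cells, since 10 of 190 DMSO cells held 64.6% of the pair's UMIs in that class. Its median cell had 778 CPM of S100a8 with Selinexor and 911 CPM with DMSO. S100a6 had 0.719 in early neutrophil-like cells and -0.276 in intermediate neutrophil-like cells.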

How the results depend on the processing

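No paired analysis was possible because each group has 1 library, and for the same reason no library could be left out. For 0 of the results did an alternative turn a ratio past its line to the other sign. The 2 genes lower in the whole Selinexor library became 0 of 8 with each cell thinned to 2000 UMIs and 0 of 8 with the same cell mix, 1 of 8 under a strict cell filter (1000 genes or more, mitochondrial UMIs under 5%), and 1 of 8 in unthinned cells with at least 2000 UMIs. Thinning left out 783 Selinexor and 314 DMSO cells. S100a8 ranged from -0.97 to -0.16 and S100a9 from -0.90 to -0.06 over 11 alternatives. S100a4 ranged from -0.01 to 0.43, S100a6 from -0.40 to 0.05 and S100a10 from -0.55 to 0.02, so their signs were not fixed. Within classes, the 2 values of 32 that were higher became 4 of 32 when thinned and 4 of 32 with clustering centred per library, 1 of 16 under the strict cell filter, and 0 of 16 without cells holding Mki67 or Top2a and 0 of 16 with classes from per-cell markers, which had fewer classes. The 6 lower values became 2 of 16 under the strict filter and 2 of 24 without doublet removal, where no macrophage-like comparison could be made. In late neutrophil-like cells S100a8 ranged from -1.36 to -0.27 and S100a9 from -1.35 to -0.23. The lineage counts stayed between 2 and 4 over 14 alternatives, and S100a11 had either sign in both libraries, while Anxa2 with Selinexor left the 2-fold line in 8 of them and S100a6 with Selinexor passed it in 10. Leiden resolution 0.5 gave no lineage value, since no cluster was then named monocyte-like or macrophage-like. TMM scaling moved the median of all genes by -0.13 and median-of-ratios scaling by -0.15. With floors of 20 and 200 UMIs the background shares were 10.3% and 8.24% higher and 4.24% and 3.25% lower. Centring per library and the unthinned depth limit were chosen after seeing the data. Depth limits S100a10, with 27 and 34 UMIs in intermediate neutrophil-like cells of the Selinexor and DMSO libraries, and S100a10 and Anxa1 in cluster 9, where each had under 50 UMIs.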

Other observations

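A few cells rich in S100a8 held almost no S100a9. Among cells with at least 200 UMIs of the pair, S100a9 made up a median of 51.7% of the pair's UMIs in 625 Selinexor cells and 50.3% in 1033 DMSO cells. It made up under 10% in 7 Selinexor cells and 17 DMSO cells, while over 80% was seen in 0 Selinexor cells and 1 DMSO cell. The most extreme was an intermediate neutrophil-like cell of the DMSO library with 1284 UMIs of S100a8 and 2 of S100a9 among 5650 UMIs. A late neutrophil-like cell of the Selinexor library had 837 UMIs of S100a8 and 29 of S100a9. These cells were spread over early, intermediate, late and monocyte-like classes and clusters 3 and 6. In the intermediate neutrophil-like class of the DMSO library, which holds 4 of them, the r of the pair across thinned cells was 0.224, against 0.791 in the Selinexor library, which holds 0. A low r did not go with such cells elsewhere. It was 0.860 in late neutrophil-like DMSO cells, which hold 6, and 0.916 in cluster 3 of the DMSO library, which holds 4. Late neutrophil-like Selinexor cells, which hold 3, had 0.895. Whether the low S100a9 counts reflect the cells or the counting was not tested.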
